A study of Homo sapiens with 8 samples.

Results

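The genes described here encode subunits of prefoldin (PFDN1, PFDN2, PFDN4, PFDN5 and PFDN6) and the tubulin folding cofactors (TBCA, TBCB, TBCC, TBCD and TBCE), 10 of the 59792 genes in the RefSeq table used. RNA crosslinked to RBFOX2, a splicing regulator, was measured by eCLIP in unmodified HEK293T cells, a human embryonic kidney line that carries a viral large T antigen. The cells received ultraviolet light at 254 nm and 400 mJ per square centimetre, which fixes proteins to the RNA they touch, and 4 immunoprecipitation (IP) libraries for RBFOX2 were compared with 4 inputs, each made from 2% of the IP sample of the same number. The labels name no other treatment and no altered allele, and HEK293T is an aneuploid line that stands for no particular tissue. The labels do not say whether the 4 replicates came from separate cultures, so the spread between them may be technical.

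The authors deposited a list of called peaks for each IP library. A called peak has coordinates, a strand, the log2 fold of IP over input and the −log10 of a p-value, whose test is not given in the sources used here. The lists include many peaks with no enrichment. A peak was given to a gene when its midpoint lay inside the span of the gene on the gene's strand, and it counted as enriched when its log2 fold and its −log10 p were both at least 3. The genes were chosen by their peaks in these same lists, so their folds, p-values and counts are given as descriptions with no test, and their distance from the other genes supports nothing further. Coordinates are those of GRCh38, 1-based, and exon and intron positions were not used here.

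Prefoldin is a jellyfish-shaped complex of alpha-type and beta-type subunits that catches newly made actin and tubulin and hands them to the cytosolic chaperonin, also called TRiC or CCT. Tubulin released from the chaperonin then passes through the folding cofactors: TBCA and TBCD hold beta-tubulin, TBCB and TBCE hold alpha-tubulin, and TBCC acts on the complex of TBCD, TBCE and both tubulins to release the finished dimer. RBFOX2 binds the RNA motif GCATG (written as DNA), often in introns near regulated exons.

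The whole lists of replicates 1 to 4 held 267691, 281701, 288305 and 280619 peaks. Read totals were not used here, so the depth is unknown and values carry no counting interval. A −log10 p of exactly 0 was commoner in replicates 1 and 4 (80.2% and 81.8% of peaks) than in replicates 2 and 3 (66.3% and 68.2%). The 10 genes showed the same split, at 55.9% and 61.7% against 49.1% and 47.6%. The limit on −log10 p was also raised to 3.1 in replicates 2 and 3. Over all 4 replicates the 10 genes then had a mean of 22 enriched peaks against 22.75. Regions enriched in all 4 replicates numbered 5 against 5. Of the 6 HEK293 markers listed, 4 had called peaks in all 4 lists, among them VIM, an intermediate filament gene, with 17, 14, 16 and 19, while the epithelial keratins KRT8 and KRT18 had 1 called peak each in a single list. The 6 markers of other cell types (PTPRC, HBB, ALB, MYH7, GFAP and PECAM1) had 0 in all lists.

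In replicates 1 to 4 the number of called peaks in the 10 genes was 331, 322, 347 and 342 (mean 335.5 ± 11.2, SD, n = 4). Enriched peaks numbered 24, 18, 24 and 25 (mean 22.75 ± 3.2, SD, n = 4), and all of them lay in PFDN1, TBCD or PFDN5. As a share of the genes' called peaks this was 7.25%, 5.59%, 6.92% and 7.31%. Among all called peaks the share was 0.861%, 0.848%, 0.789% and 0.775% in the same order, a background from which nothing is read because the genes were chosen on this contrast. The median log2 fold of the genes' called peaks was 1.00, 0.37, 0.59 and 0.58, where the median over each whole list was 0.00. A log2 fold above 0.5 was found for 56.2%, 49.1%, 50.7% and 51.2% of them, beside 33.1%, 31.6%, 29.8% and 31.2% of all called peaks. These pooled values lean on TBCD, which held a mean of 169.5 of the 335.5 peaks per list. By gene, the mean share ran from 20.6% in TBCA to 75.4% in PFDN5. It lay under the 31.4% of all peaks in TBCA, PFDN6, TBCE and PFDN4, and above it in the others. Peaks with a log2 fold below −0.5 made up 19.9% ± 0.463 of the genes' peaks and 23.6% ± 0.488 of all peaks (SD, n = 4 for both).

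PFDN1 and TBCD had an enriched peak in each of the 4 replicates, PFDN5 in replicates 1 and 4, and the remaining 7 genes in none. Among the 10100 genes with called peaks in every list, 302 (2.99%) had an enriched peak in each replicate. Same-strand enriched peaks of the 4 lists with an overlap of 1 nt or more were merged into regions, of which 14 lay in the 10 genes and 5 of those, 3 in PFDN1 and 2 in TBCD, were enriched in all 4 replicates. Over the whole lists 552 of 3371 regions (16.4%) were. Summed over the lists, TBCD held 54 enriched peaks and PFDN1 35, which placed them 26 and 46 among the 10100 genes, and PFDN5 held 2.

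**Figure D1:**
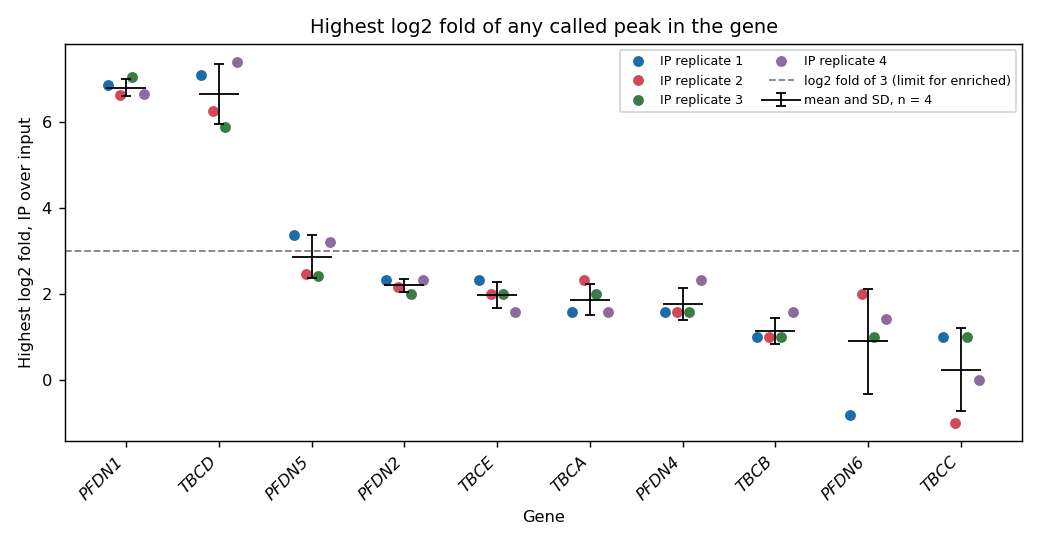
The highest log2 fold (IP over input) of any called peak is plotted for each of the 10 genes, with 1 point per replicate, bars for the mean and SD (n = 4) and a dashed line at the limit of 3. The lowest point of PFDN1 and TBCD is 5.88, PFDN5 lies on both sides of the limit, and the highest point of the other 7 genes is 2.32.

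The order of the genes by highest log2 fold had PFDN1 (6.79 ± 0.19) and TBCD (6.65 ± 0.70) at the top, and their replicates overlapped. PFDN5 followed at 2.87 ± 0.50, with its highest replicate (3.37) under the lowest of TBCD (5.88) and its lowest (2.42) just above the highest of PFDN2 (2.32). PFDN2 (2.20 ± 0.15), TBCE (1.98 ± 0.30), TBCA (1.87 ± 0.36) and PFDN4 (1.77 ± 0.37) followed, and within these 4 genes neighbours differed by less than the larger SD. TBCB (1.15 ± 0.29), PFDN6 (0.90 ± 1.21) and TBCC (0.25 ± 0.96) came last, with overlapping replicates (SD, n = 4 for each gene). The means of the last pair rest on single replicates, since leaving out 1 replicate gave 0.54 to 1.47 for PFDN6 and 0.00 to 0.67 for TBCC. The number of called peaks did not follow this order, since TBCA with 53, 71, 58 and 69 had more of them than PFDN1 with 27, 31, 27 and 35.

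PFDN1, a beta-type prefoldin subunit, spans chromosome 5 from 140245035 to 140303101 on the minus strand, 58067 nt. All of its enriched peaks, 5, 8, 10 and 12 in replicates 1 to 4, fell within 886 nt (140266660 to 140267545), or 1.53% of the span, 35556 to 36441 nt from the gene start. Enriched peaks separated by at most 200 nt were counted as 1 cluster, and by that measure PFDN1 held a single cluster. Its highest log2 fold was 6.87, 6.62, 7.03 and 6.66, with a highest −log10 p of 33.1, 34.3, 37.6 and 28.4. The 4 replicates were close together, with the lowest in replicate 2 and the highest in replicate 3. That peak ranked 24, 10, 11 and 23 by fold within its own list.

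**Figure D2:**
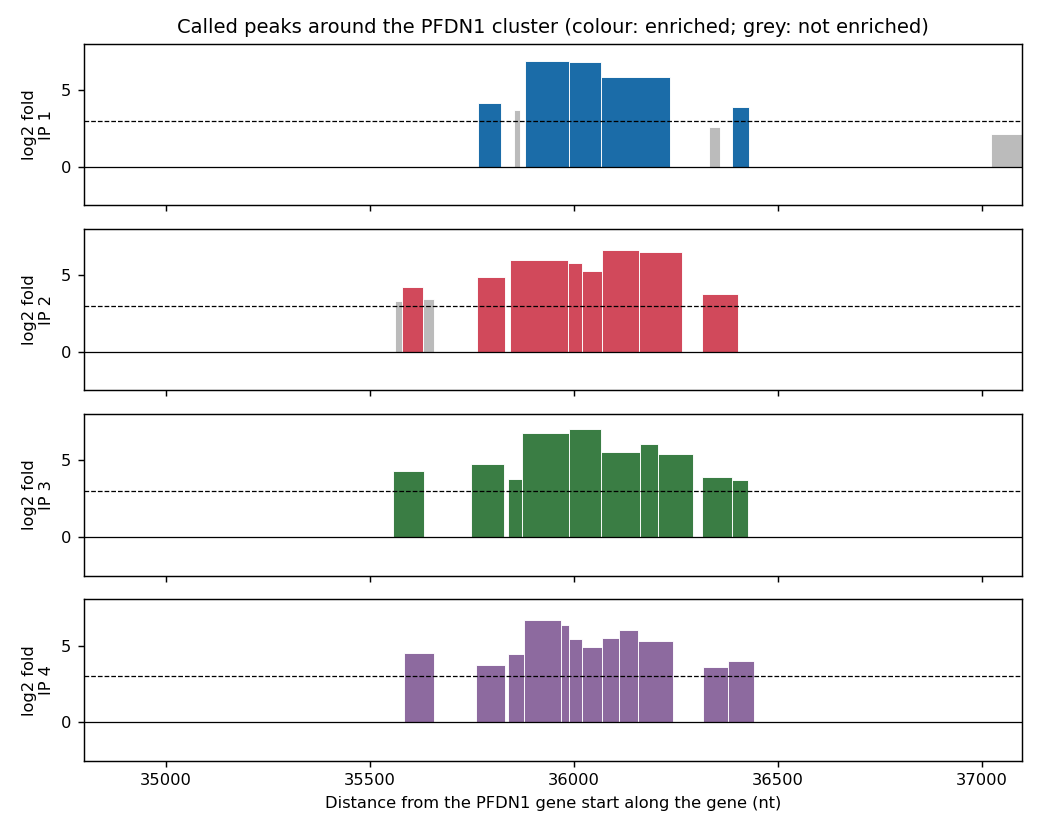
Called peaks of PFDN1 between 34800 and 37100 nt from the gene start are drawn for each replicate, with width on the distance axis (nt) and height as log2 fold, coloured where enriched and grey where not, and a dashed line at 3. The tallest block, from 35839 to 36291 nt, is present in all 4 replicates, and the block that starts at 35556 nt is missing from replicate 1.

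Along the transcript the cluster rose and fell through 4 regions. The first, at 35556 to 35656 nt from the start, had log2 folds of 4.25, 4.32 and 4.52 in replicates 2 to 4 and no called peak in replicate 1. The next, at 35748 to 35831 nt, had 4.17, 4.86, 4.76 and 3.74 (mean 4.38 ± 0.53, SD, n = 4). The strongest, of 453 nt at 35839 to 36291 nt, held 22 of the 35 enriched peaks. The last, at 36314 to 36441 nt, had 3.91, 3.76, 3.91 and 4.00 (mean 3.89 ± 0.10, SD, n = 4). The strongest region stood above the regions on either side in every replicate. Enriched peaks of all 4 replicates covered the same 424 nt of the cluster (47.9%), and 120 nt (13.5%) between the blocks lay under none.

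Outside the cluster PFDN1 had 20, 21, 17 and 23 called peaks, of which 0 were enriched. Their median log2 fold was 0.50 ± 0.58 and 48.9% ± 10.4 of them exceeded 0.5, against 65.8% ± 4.74 for the whole gene (SD, n = 4 for each). The first 20000 nt of the span, counted from the gene start, held 2, 2, 2 and 0 called peaks. Peaks were sparse over the first part of the span, and the enriched ones lay past its middle. On the edge of the threshold, the enriched PFDN1 peak with the lowest −log10 p had a fold of 3.70 at 3.01 in replicate 3, and a peak of the same fold in replicate 1 stayed out at 2.74.

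PFDN5, an alpha-type subunit also known as a binding partner of MYC, spans 3909 nt of chromosome 12 (53295542 to 53299450, plus strand). It had 5, 6, 6 and 8 called peaks, or 1.60 ± 0.322 per kb (SD, n = 4). Its highest log2 fold was 3.37, 2.46, 2.42 and 3.22, with a highest −log10 p of 6.12, 3.51, 2.59 and 5.33. In each replicate that peak lay in the same stretch, within 53296050 to 53296214, about 560 to 635 nt from the gene start by midpoint. Replicates 1 and 4 passed both limits, replicate 2 passed the limit on p but not on fold, and replicate 3 fell short of both. In replicate 2 the stretch was called as adjacent peaks of 2.17 and 2.46, and in replicate 1 as 3.37 and 1.76, while replicates 3 and 4 had it as a single peak of 152 and 145 nt. The share of PFDN5 peaks above 0.5 was 60.0%, 83.3%, 83.3% and 75.0%.

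The other beta-type subunits, PFDN2, PFDN4 and PFDN6, had called peaks in every list and 0 enriched. PFDN2 (chromosome 1, 161100561 to 161118037, minus strand) had 9, 7, 10 and 7 called peaks with a highest log2 fold of 2.32, 2.17, 2.00 and 2.32. The highest peaks of PFDN2 lay at 15940, 3233 and 4690 nt from the gene start in replicates 2 to 4, and a pair tied at 3458 and 3671 nt in replicate 1. PFDN4 (chromosome 20, 54208087 to 54219961, plus strand) had 12, 10, 12 and 12 called peaks with a highest log2 fold of 1.58, 1.59, 1.59 and 2.32. PFDN6, the shortest of the prefoldin genes at 1738 nt (chromosome 6, 33289197 to 33290934, plus strand), had 3, 5, 4 and 5 called peaks, the most per length of the 10 genes at 2.45 ± 0.551 per kb (SD, n = 4). In replicate 1 all PFDN6 peaks lay below −0.5 on the log2 scale, with a highest value of −0.81, and in the other replicates the highest was 2.00, 1.00 and 1.41. The highest −log10 p of these 3 genes was 1.41, in PFDN2, so none of their peaks came near the limit of 3.

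TBCD, the cofactor that binds beta-tubulin and takes part in its release as a dimer, is the longest of the genes (chromosome 17, 82752065 to 82945914, plus strand, 193850 nt). It had 179, 152, 185 and 162 called peaks, of which 18, 10, 14 and 12 were enriched. The highest log2 fold was 7.09, 6.25, 5.88 and 7.39, with a highest −log10 p of 38.8, 36.4, 28.7 and 48.3. Replicates 1 and 4 were above replicates 2 and 3 on the log2 scale, and by fold the top peak ranked 14, 30, 55 and 4 in its list.

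Of the enriched TBCD peaks, 16, 10, 11 and 11 lay in a cluster of 1429 nt (82849644 to 82851072), or 0.737% of the span, 97579 to 99007 nt from the gene start. The middle of the span falls just before it. The cluster held a pair of regions enriched in all 4 replicates, a few nucleotides apart. The upstream region, of 401 nt at 82849644 to 82850044, had log2 folds of 7.09, 6.05, 5.73 and 7.39 (mean 6.56 ± 0.80). The downstream region, of 665 nt at 82850059 to 82850723, had 6.37, 6.25, 5.88 and 7.05 (mean 6.39 ± 0.49, SD, n = 4 for both). The upstream value was higher in replicates 1 and 4 and lower in replicates 2 and 3, so their order was not fixed. A short region at 82850768 to 82850820 followed with 3.91, 2.81, 3.70 and 4.52 and was enriched in replicates 1, 3 and 4. A further 56 nt at 82851017 to 82851072 had a called peak in replicate 3 alone, at 4.52. Enriched peaks of all 4 replicates covered the same 907 nt (63.5%) of the cluster.

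**Figure D3:**
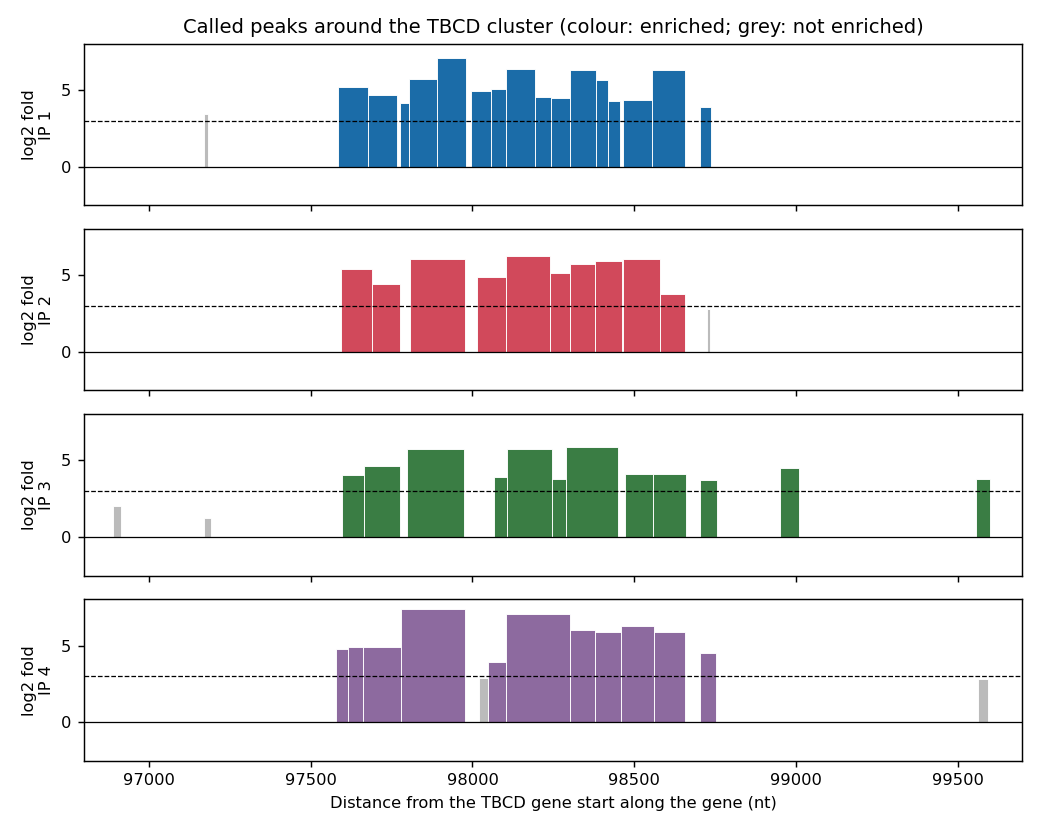
Called peaks of TBCD between 96800 and 99700 nt from the gene start are drawn for each replicate, with width on the distance axis (nt) and height as log2 fold, coloured where enriched and grey where not, and a dashed line at 3. A pair of broad blocks is present in all 4 replicates, and the peaks after the end of the downstream block at 98658 nt differ between replicates.

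The enriched peaks of TBCD outside this cluster numbered 2, 0, 3 and 1 and fell in 5 places, none of them enriched in more than 2 replicates. A stretch at 82844997 to 82845129 had log2 folds of 3.91, 2.17, 1.59 and 3.09 and was enriched in replicates 1 and 4. Single-replicate calls were made at 82848561 to 82848623, 82851622 to 82851664 and 82929935 to 82929987 in replicate 3, and at 82909626 to 82909736 in replicate 1. Of these, the stretch at 82929935 had called peaks in all 4 replicates, at 1.58, 0.81, 3.70 and 0.58, as did the stretch at 82909626, at 4.00, 2.46, 2.32 and 2.81. Near the limits, the enriched TBCD peak of lowest fold had 3.09 with a −log10 p of 3.14, and a peak of 2.81 with 3.56 stayed out, both in replicate 4. In all, 12 TBCD peaks passed the fold but not the p limit and 4 the reverse.

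The remaining called peaks of TBCD were also shifted towards the IP. Without the cluster, 163, 141, 174 and 150 peaks had a median log2 fold of 1.32, 0.74, 1.00 and 1.00, and 71.2%, 58.9%, 64.4% and 64.0% of them exceeded 0.5. With the cluster the share was 67.2% ± 4.91 (SD, n = 4). Among the 245 genes with at least 100 called peaks in each list, that share had a median of 27.8% and a range of 7.30% to 93.8%, and TBCD ranked 9. The shift spread along the gene. In steps of 20000 nt from the start, the median over the pooled lists was 0.00 at 40000 to 60000 nt (24 peaks), 0.59 at 60000 to 80000 nt (112 peaks), 2.00 in the step that holds the cluster (162 peaks), 1.00 in the next (120 peaks) and 1.32 at 140000 to 160000 nt (123 peaks). The span of ZNF750, an epidermal transcription factor gene that lies within TBCD, held 69 of the TBCD peaks over the 4 lists and 0 enriched ones. Its strand was not in the table used, and whether any of these peaks come from ZNF750 was not tested. On the strand opposite to TBCD, 0 peaks were called within that span.

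**Figure D4:**
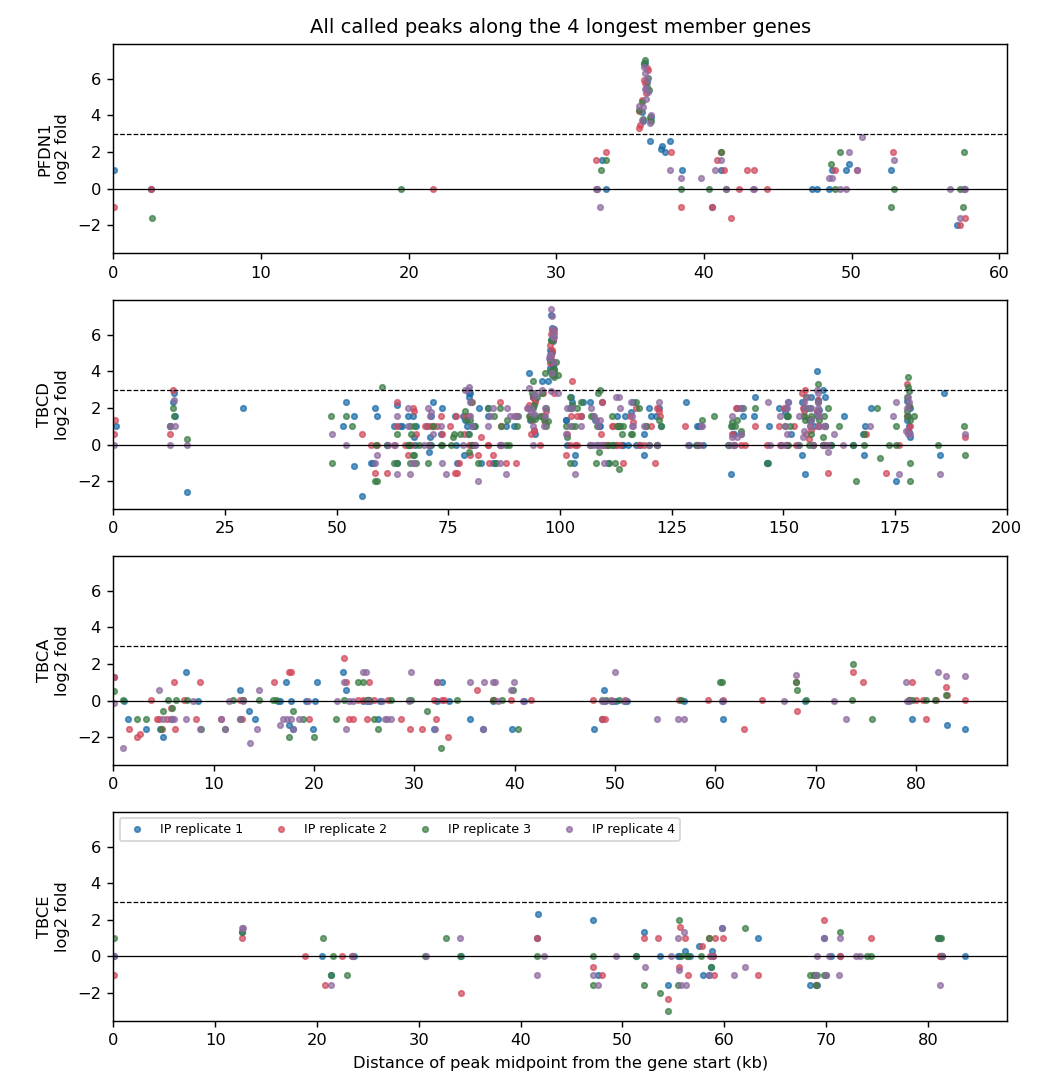
All called peaks of the 4 longest genes (PFDN1, TBCD, TBCA and TBCE) are plotted by the distance of their midpoint from the gene start (kb, a scale of its own for each gene) and their log2 fold, with 1 colour per replicate and a dashed line at 3. PFDN1 and TBCD each show a narrow column of points, reaching 7.03 and 7.39, and TBCA and TBCE stay below 3 over their whole length.

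TBCA, which receives beta-tubulin, showed the opposite balance. Its span on chromosome 5 (77691166 to 77776339, minus strand, 85174 nt) is longer than that of PFDN1 and held 0.737 ± 0.102 called peaks per kb, against 0.517 ± 0.0660 for PFDN1 (SD, n = 4 for both). A log2 fold above 0.5 was found for 17%, 22.5%, 15.5% and 27.5% of the TBCA peaks and one below −0.5 for 39.6%, 35.2%, 31.0% and 39.1%. In every replicate peaks below −0.5 outnumbered those above 0.5. The deposited −log10 p is 0 for every negative fold, so these peaks carry no measure of depletion. Over the first 20000 nt the median log2 fold was −0.29, −1.0, −0.41 and −1.0, and over the next 20000 nt it was 0.00 in each replicate. The highest log2 fold of TBCA was 1.58, 2.32, 2.00 and 1.58, with several peaks tied at that value in replicates 1 and 4.

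TBCE, which binds alpha-tubulin, spans 85017 nt of chromosome 1 (235367427 to 235452443, plus strand) and had 35, 33, 37 and 35 called peaks. Its highest log2 fold was 2.32, 2.00, 2.00 and 1.58, and 31.4%, 36.4%, 27.0% and 22.9% of its peaks exceeded 0.5, while 35.0% ± 8.55 (SD, n = 4) lay below −0.5. The end of TBCE overlaps B3GALNT2, a glycosyltransferase gene on the other strand, and 17 of the TBCE peaks over the 4 lists lay in the overlap. TBCB, the other alpha-tubulin cofactor (chromosome 19, 36114967 to 36125941, plus strand), had 7, 6, 7 and 7 called peaks with a highest log2 fold of 1.00, 1.00, 1.00 and 1.58. TBCC (chromosome 6, 42744498 to 42746103, minus strand, 1606 nt) had 1, 1, 1 and 2 called peaks, at most 1.00 on the log2 scale. Most of these highest values, 1.00, 1.58, 2.00 and 2.32, are the log2 of 2, 3, 4 and 5, so in these genes neighbouring values differ by a whole step. Apart from a small offset in each list, the highest folds of PFDN1 and TBCD are also the log2 of whole numbers. How far those folds, and the ranks and replicate order by fold, rest on a very low input was not tested.

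**Figure D5:**
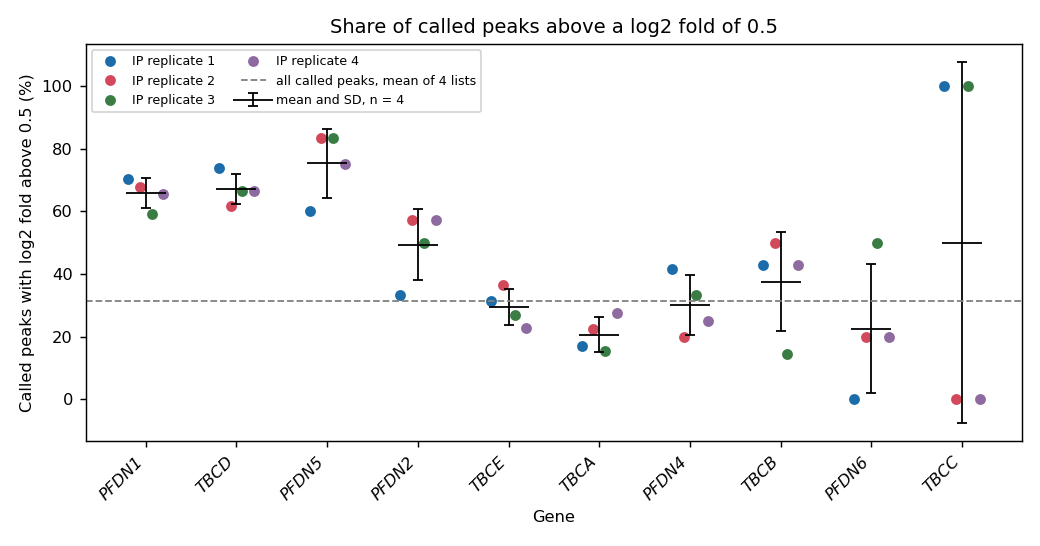
The share of called peaks with a log2 fold above 0.5 (%) is plotted for each gene, with 1 point per replicate, bars for the mean and SD (n = 4) and a dashed line at the mean over all called peaks (31.4%). PFDN1, TBCD, PFDN5 and PFDN2 lie above the line in all 4 replicates and TBCA below it in all 4, and TBCC, with 1 or 2 peaks a list, runs from 0 to 100.

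Peaks of the genes recurred between replicates to different degrees. A called peak overlapped a called peak of all 3 other replicates in 39.1% ± 5.59 of cases in PFDN1 and 36.4% ± 2.08 in TBCD, in 12.9% ± 1.94 in TBCA, and in 18.4% ± 0.499 over the whole lists (SD, n = 4 for each). The share was higher in the short genes PFDN5, at 66.9% ± 20.9, and PFDN6, which had no enriched peak, at 49.2% ± 12.6 (SD, n = 4 for both), each with at most 8 peaks a list. PFDN2, PFDN4, TBCE and TBCB lay between 14.9% and 31.2%. In TBCC no peak did. For enriched peaks with an enriched partner in all 3 others the share was 85.6% ± 10.9 in PFDN1 and 81.3% ± 14.8 in TBCD, and 45.5% ± 2.04 over the whole lists (SD, n = 4 for each). The genes were chosen by their peaks in these lists, and the called peaks of PFDN1 and TBCD include their clusters. Nothing is read from the distance of these shares to those of the whole lists.

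Called peaks with a place near the gene start allow a look at sequence, since promoter windows of 250 bases before to 50 bases after each start were taken from RefSeq (GRCh38.p14). Windows were found for 9 of the 10 genes, 13 windows in all. Peaks called in all 4 replicates reached into the window of TBCE and TBCA only. The stretch shared by the peaks of all 4 replicates is shown for each as an example of RNA that was called without enrichment, in lower case because GCATG did not occur in it.
TBCE, chr1:235367449-235367476, plus strand, bases 23 to 50 after the start: ctgggcagttggctggaggggctgctgc
TBCA, chr5:77776290-77776307, minus strand, bases 33 to 50 after the start: cacggttaccccggctct
The TBCE peaks over this stretch had log2 folds of 0.00, −1.0, 1.00 and 0.00 and those of TBCA 1.28, 1.29, 0.52 and −0.12, with a highest −log10 p of 1.51. GCATG on the gene strand lay in 0 of the 13 windows in the 50 bases after the start, where 3.51% of the 35116 windows of all genes have it. Over the whole window it was found in 2 of 13 (15.4%), TBCA and PFDN4, beside 19.6% of all windows, and on the other strand (CATGC) in 2 of 13 beside 19.1%. These are matches of letters in DNA near the start and say nothing about the clusters of PFDN1 and TBCD, whose sequence was not used here.

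A wider list of 38 genes of the same folding route held 0 enriched peaks in any replicate. Called peaks in all 4 lists were found in 32 of them. Of these 32, 0 had an enriched peak in each replicate, beside 2.99% of all such genes. For an enriched peak in any replicate the background is larger, since genes with 0 shared rank 952 of the 10100 by enriched peaks. Nothing further is read from the count of 0. It took in the remaining prefoldin and prefoldin-like subunits, the chaperonin subunits, chaperonin and tubulin partners, and the tubulins. VBP1, the other alpha-type prefoldin subunit, had 13, 15, 18 and 14 called peaks. The highest fold of the list was in CCT6A, a chaperonin subunit, at 2.81, 2.59, 3.46 and 2.58 with a −log10 p of at most 2.47, which passed the fold limit in replicate 3 but not the p limit. ARL2, a small GTPase that works with TBCD, reached 3.0 in replicate 2 at a −log10 p of at most 1.67. Over the 32 genes the mean highest log2 fold had a median of 1.35, and it was 1.63 for the chaperonin subunits and 1.03 for the tubulins.

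The genes whose strongest region was most like that of PFDN1 over the 4 replicates, by Euclidean distance of the log2 folds among 232 genes with a region enriched in all 4, were CARS2 (distance 0.674), GPI (0.885), SNAP47 (1.02), CABLES1 (1.28) and NXN (1.29). TBCD lay at 1.62. By the mean of that region PFDN1 ranked 5 and TBCD 7 of the 232.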

How the data were processed

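The authors deposited 4 headerless peak lists, 1 per RBFOX2 IP library against the input of the same number. The deposited column 4 was read as −log10 p (at least 0, ending at 400, and 0 wherever the fold was negative), and the deposited column 5 as the log2 fold of IP over input. The submitters' processing notes name STAR 2.7.7a, cutadapt 3.2, UMI-tools 1.1.1, hg38 and GRCh38.p13. The peak caller, test, scaling and filters are not given in the sources used here.

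Peaks were assigned by midpoint and strand to RefSeq gene spans of GRCh38.p14, which shares its chromosome coordinates with GRCh38.p13. Strands came from the promoter table. PFDN2 had no entry there and was taken as minus from general knowledge, and it had 0 peaks on the other strand. CCT6A and PFDN4P1 were counted on either strand, as were the markers NEFL, NEFM, KRT18, HBB, MYH7, GFAP and PECAM1. Regions were merged from the enriched peaks of the 4 whole lists. The merging code was tested on simulated peaks against a direct count. Values are means ± SD over 4 replicates, with no test. All 10 genes are named, and the wider list is given by counts with the highest gene of the list. ARL2 was named after its values were seen. The members and lists were chosen with earlier results of these data known. Python 3.11.15, numpy 2.4.6, pandas 2.3.3 and matplotlib 3.10.9 were used.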

Additional observations from a re-analysis of the deposited data

Results flagged for a closer look

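Of 55 sets of 4 replicate values examined for the genes, 7 had a replicate far from the other 3. The limit used is passed about 1 in 20 times by continuous values. That rate does not hold where 3 values tie, so the 7 are not set against it. Most of the 7 are small whole numbers or steps of the log2 scale that 3 replicates shared. PFDN4 had 10 called peaks in replicate 2 and 12 in the others, and its highest log2 fold was 2.32 in replicate 4 against 1.58 to 1.59. TBCB had 6 called peaks in replicate 2 and 7 in the others, and its highest log2 fold was 1.58 in replicate 4 against 1.00. TBCC had 2 called peaks in replicate 4 and 1 in the others, and its share of peaks with a −log10 p of 0 was 0% in replicate 3 and 100% in the others. The median log2 fold of the TBCD peaks was 1.41 in replicate 1 and 1.00 in the other 3. On the strand opposite to TBCE, which was not used for it, 6, 8, 6 and 7 peaks were called (mean 6.75), with 0 enriched and a highest log2 fold of −0.74, 0.00, 1.00 and 1.00. That strand is the one of B3GALNT2, whose span overlaps the end of TBCE.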

How the results depend on the processing

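Of 150 alternative values, 141 stayed within 1.5 times (counts) or 1 SD (other values) of the value given, 9 moved and 0 reversed. All 120 that left out 1 replicate stayed. For values judged by the SD this was fixed beforehand, since leaving out 1 of 4 values cannot move their mean by 1 SD. No stability is read from it. The highest log2 fold then ran from 0.54 to 1.47 against 0.90 in PFDN6, and from 0.00 to 0.67 against 0.25 in TBCC. Of the 30 other alternatives, 21 stayed and 9 moved. Counting only peaks with a −log10 p above 0 gave 155.75 called peaks per replicate against 335.5. Of regions enriched in all 4 replicates there were 3 at a fold limit of 4 (log2) without one on p, 10 when a called peak of any fold was enough, and 2 when regions were joined over gaps of at most 200 nt, against 5. PFDN1 and TBCD held such a region under each of the 4 other thresholds tried. The length-weighted mean of all called peaks gave 6.02 against 6.79 and 3.69 against 3.89 in PFDN1, and 5.56 against 6.56 and 5.47 against 6.39 in TBCD, where the main value is the highest peak. Without the cluster, 48.9% of PFDN1 peaks exceeded 0.5 against 65.8%. Joining regions and leaving out a cluster were added after seeing the data. The planned shares of peaks with GCATG, exon and intron classes and exonic lengths were not run, since genome sequence and exon positions were left out of the analysis. No paired analysis was possible because every deposited fold is already a within-pair value of an IP over its own input, and separate input values, which a fit with and without the pairing needs, were not used. Without read counts, the precision of a single fold is unknown.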
